A study of Sus scrofa with 12 samples.

Results

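The liver transcripts described here belong to 7 genes, 6 of which code for enzymes linked to the clearance of skatole and 1 for the receptor AHR, and they were chosen by gene symbol among the 31694 genes listed in each file. The genes are CYP2A19, CYP2E1, CYP1A1, CYP1A2, CYP2C49, SULT1A1 and AHR. All 7 had a row, 6 were above 0, and these 6 were tested between the breeds together with 12993 genes in all. The mRNA of the liver was sequenced in 1 library per pig from 3 Jinhua (JH) pigs, a slow growing fat breed of China, and 3 Landrace (LD) pigs, a fast growing lean breed that served as the control. All 6 pigs were uncastrated males of 70 days of age. Breed and anything else in which these pigs differed, such as their rearing, cannot be told apart.

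Skatole is made from tryptophan by bacteria of the hind gut, is absorbed into the blood and is cleared by the liver. In the first phase P450 enzymes, above all CYP2A19 and CYP2E1, oxidise it, and in the second phase sulfotransferases and glucuronosyltransferases conjugate the products for excretion. Skatole that escapes the liver collects in fat, and together with the testicular steroid androstenone it gives the odour known as boar taint in the meat of uncastrated males. AHR is a transcription factor that is activated by planar aromatic ligands, indoles among them, and CYP1A1 and CYP1A2 are its classical targets.

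Levels are RPKM, reads scaled by the length of the gene and by the size of the library, as deposited by the authors, so levels of different genes are compared per length. The read total by which each library was scaled, read from the steps between low values, ranged from 5744910 in JH1 to 7914517 in LD3. These totals are smaller than the clean reads that the paper gives per library, which were fewest in JH1 and most in JH3. Breeds were compared with limma across all tested genes on log2(RPKM + 0.1), a scale that understates changes of low genes, and a gene was called where the p adjusted by Benjamini-Hochberg was below 0.05 and the absolute log2 fold change was above 1. Of the 12993 genes 310 (2.39%) were called, 177 lower in JH (1.36%) and 133 higher in JH (1.02%). All 3 JH values lay below all 3 LD values in 12.5% of the genes and above them in 10.8%. Albumin (ALB), the main hepatocyte product, was between 27533 and 53893 RPKM in the 6 libraries. RN18S, a ribosomal RNA gene, was lowest in JH2 (1570 RPKM) and highest in JH3 (62257 RPKM).

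Of the 6 genes tested, CYP2A19 was called, lower in JH, and none of the other 5 was. The median log2 fold change of the 6 was -0.09, against 0.04 over all tested genes. The breeds did not overlap in 2 of them, CYP2A19 and CYP2E1, both with the JH pigs below the LD pigs, where 23.4% of all genes had breeds apart in either direction. At an unadjusted p below 0.05 stood 3 of the 6, against 17.9% of all genes. They were CYP2A19 and CYP2E1, lower in JH like 9.51% of all genes, and CYP2C49, higher in JH like 8.35%.

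CYP2A19, the pig member of the CYP2A subfamily and an oxidase of skatole, was at 1758 RPKM in LD1, 1270 in LD2 and 1251 in LD3. JH1 had 235 RPKM, JH2 had 22.5 RPKM and JH3 had 8.16 RPKM. The LD pigs were alike, with the highest value 1.40 times the lowest, while the highest JH value was 28.7 times the lowest and was still far below every LD value. These levels rested on 10509 to 13246 reads per LD library and on 1430, 185 and 67 reads in JH1, JH2 and JH3. By level CYP2A19 was the 33rd to 53rd most abundant of the tested genes in the LD livers, and it ranked 363 in JH1, 2608 in JH2 and 4457 in JH3.

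CYP2A19 had a log2 fold change, JH over LD, of -5.32 with a standard error of 0.97 (adjusted p = 0.0310, limma), which is 40.0-fold higher in LD with a 95% interval of 8.77 to 182. This fold comes from means of log2 values, on which the low JH2 and JH3 weigh heavily. The plain means were 88.4 ± 127 RPKM in JH and 1427 ± 287 RPKM in LD (SD, n = 3 each), a ratio of 16.1. Of all 12993 genes only 5 had a lower fold change. In whole tissue, fewer cells of a type and less RNA per cell cannot be told apart. The exact permutation test, two-sided, gave p = 0.1, its lower limit with 3 pigs in each breed. The call of CYP2A19 depended on single libraries. It was held without JH1 (adjusted p = 0.000214 from limma) and without JH3 (adjusted p = 0.0346), and was lost without JH2 (adjusted p = 0.0851), LD1 (adjusted p = 0.117), LD2 (adjusted p = 0.0942) or LD3 (adjusted p = 0.0680), while its log2 fold change stayed between -6.69 and -4.27. It was also lost with no filter on low values (adjusted p = 0.0548), and was made by voom on recovered reads (adjusted p = 0.00734).

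**Figure D1:**
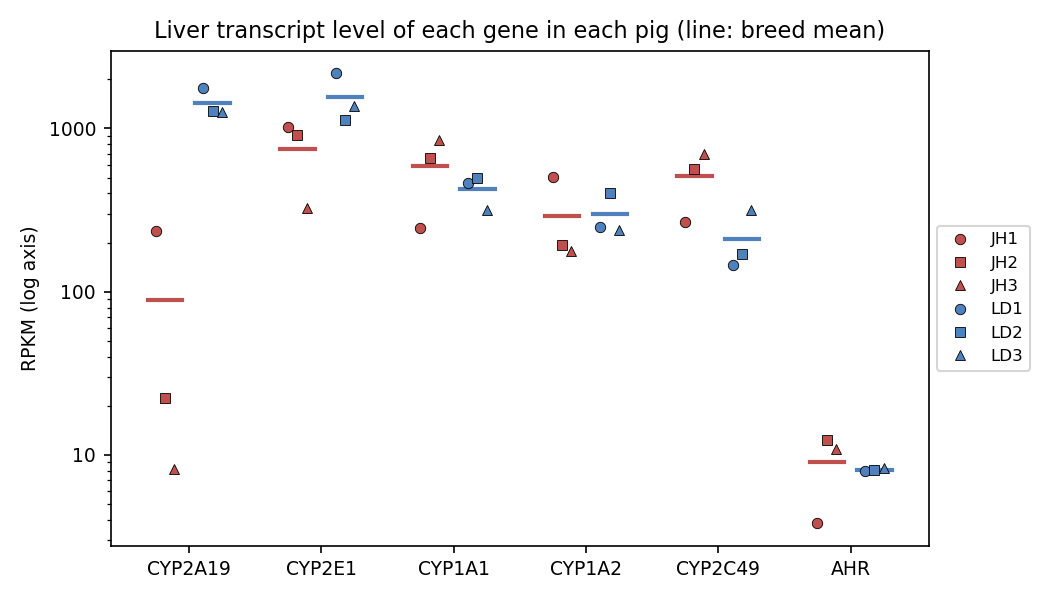
RPKM on a log axis of the 6 genes above 0 in each of the 3 JH pigs (red) and 3 LD pigs (blue), with a horizontal line at each breed mean. The CYP2A19 points of JH, from 8.16 to 235 RPKM, lie below those of LD, from 1251 to 1758 RPKM, while the points of the breeds overlap in CYP1A1, CYP1A2, CYP2C49 and AHR.

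CYP2E1 oxidises small molecules such as ethanol as well as skatole, and is made chiefly by hepatocytes around the central vein. JH1 had 1015 RPKM, JH2 had 910 RPKM and JH3 had 328 RPKM, while LD1 had 2177 RPKM, LD2 had 1126 RPKM and LD3 had 1368 RPKM. The highest JH pig was below the lowest LD pig by a small margin, and JH3 and LD1 lay away from the other pigs of their breeds. The mean of JH was 751 ± 370 RPKM and that of LD 1557 ± 550 RPKM (SD, n = 3 each). CYP2E1 was 2.23-fold higher in LD, a log2 fold change of -1.16 with a standard error of 0.45 and a 95% interval of -2.17 to -0.15, and was not called (adjusted p = 0.219, limma). Without JH3 the log2 fold change was -0.64, and without LD1 it was -0.89.

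Levels of CYP2A19 and CYP2E1 were close to each other in LD. The ratio of CYP2A19 to CYP2E1 within a library, which does not depend on how the library was scaled, was 0.808 in LD1, 1.13 in LD2 and 0.915 in LD3. In JH it was 0.231 in JH1, 0.0247 in JH2 and 0.0249 in JH3. All JH ratios were below all LD ratios, so CYP2A19 was lower in JH also relative to CYP2E1, 18.0-fold by the mean of the log2 ratios (p = 0.1 by the two-sided exact permutation test). Leaving out any 1 library gave a log2 difference of the ratio from -5.25 to -3.63.

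CYP1A1 and CYP1A2 are the AHR-inducible oxidases, and CYP1A2 is the form that human liver makes constitutively. CYP1A1 reached 246 RPKM in JH1, 662 in JH2 and 853 in JH3, and 460 RPKM in LD1, 495 in LD2 and 315 in LD3. The JH pigs included the lowest value of all 6 (JH1) and the highest values (JH2 and JH3). CYP1A1 had a log2 fold change of 0.32 with a standard error of 0.44 (adjusted p = 0.749, limma). Its 95% interval, -0.67 to 1.31, reaches a 2.48-fold higher level in JH. Without JH3 the value turned to -0.04.

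CYP1A2 was at 503 RPKM in JH1, 193 in JH2 and 177 in JH3, and at 249 RPKM in LD1, 404 in LD2 and 238 in LD3. The order of the JH pigs was the reverse of that in CYP1A1, with JH1 the highest of all 6 and JH2 and JH3 the lowest. For CYP1A2 the log2 fold change was -0.16 with a 95% interval of -1.09 to 0.78 (adjusted p = 0.877, limma), and it was above 0 without JH2 (0.05), JH3 (0.11) or LD2 (0.08). The ratio of CYP1A1 to CYP1A2 was 0.490 in JH1, 3.42 in JH2 and 4.82 in JH3, and 1.85, 1.22 and 1.32 in LD1, LD2 and LD3, so that the 3 LD pigs lay between JH1 and the other JH pigs. The sum of the pair differed less, and was between 750 and 1030 RPKM in JH and between 553 and 898 RPKM in LD.

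The receptor gene AHR was at 3.82 RPKM in JH1, 12.4 in JH2 and 10.9 in JH3, and at 7.96 RPKM in LD1, 8.04 in LD2 and 8.35 in LD3. The LD pigs were within 1.05-fold of each other, while JH1 was the lowest of all 6 and JH2 and JH3 the highest. In CYP1A1 too JH1 was the lowest and JH2 and JH3 the highest, but there JH3 was above JH2. The AHR values rest on 126 reads in JH1 and on 324 to 553 reads in the other libraries. AHR had a log2 fold change of -0.01 with a 95% interval of -0.94 to 0.91 (adjusted p = 0.992, limma), and of 0.51 without JH1.

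CYP2C49, a member of the large CYP2C subfamily of drug and steroid oxidases, had a higher mean in JH than in LD. It was at 268 RPKM in JH1, 568 in JH2 and 694 in JH3, and at 145 RPKM in LD1, 169 in LD2 and 315 in LD3. The breeds overlapped in that JH1 was below LD3. CYP2C49 was 2.39-fold higher in JH, a log2 fold change of 1.26 with a 95% interval of 0.32 to 2.19, and was not called (adjusted p = 0.163, limma). Reads from close relatives in this subfamily can be shared, so the level of CYP2C49 is uncertain.

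JH1 thus stood at one end of the JH pigs in each of the 6 genes. It had the most CYP2A19, CYP2E1 and CYP1A2 and the least CYP1A1, CYP2C49 and AHR. JH3 stood at the other end in all of them but AHR, where JH2 was the highest. In CYP2E1 the levels of JH1 and JH2 were close, and JH3 was the pig that lay apart. With JH1 left out, the log2 fold change was -6.69 for CYP2A19, -1.45 for CYP2E1, 0.86 for CYP1A1, -0.64 for CYP1A2 and 1.67 for CYP2C49, and CYP2A19 was still the only gene called among them. JH1 was also the library with the fewest reads, and JH3 the one with the highest RN18S (62257 RPKM). The part of either in these values was not tested.

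**Figure D2:**
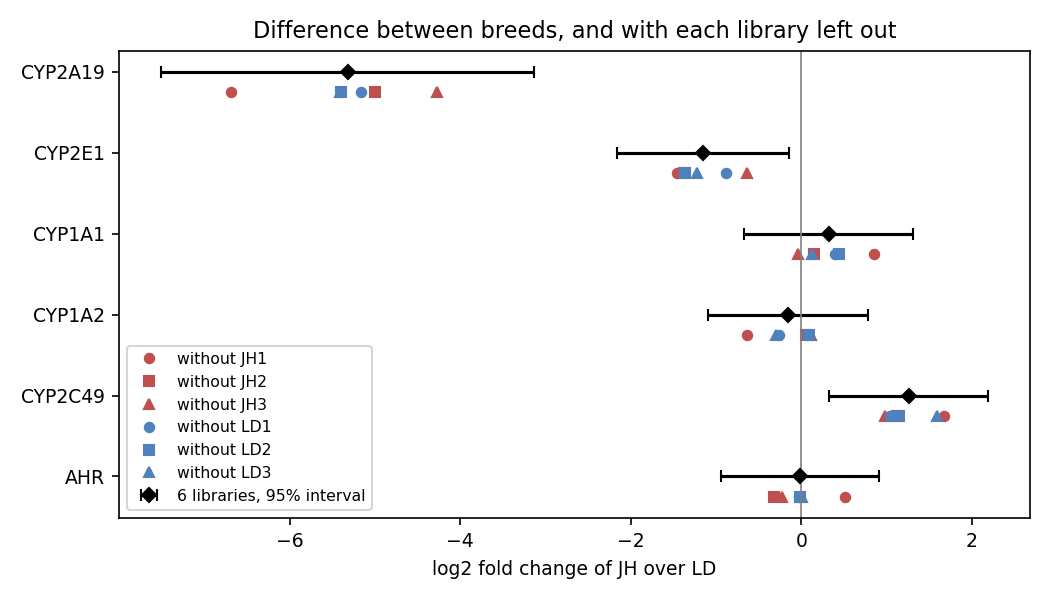
Log2 fold change, JH over LD, of the 6 tested genes from limma with its 95% interval (black diamonds and bars), and the same value with each library left out in turn (symbols just under each diamond, red for a left-out JH library and blue for a left-out LD library). CYP2A19 stays between -6.69 and -4.27, and CYP1A1, CYP1A2 and AHR fall on either side of 0.

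The levels of the 5 P450 genes were also added up within each pig. The sum was 2267 RPKM in JH1, 2356 in JH2 and 2060 in JH3, and 4789 RPKM in LD1, 3463 in LD2 and 3488 in LD3. All JH sums were below all LD sums, with a JH mean of 2227 ± 152 RPKM and an LD mean of 3913 ± 758 RPKM (SD, n = 3 each, exact permutation p = 0.1). CYP2A19 and CYP2E1 held most of the sum in LD. The sum without CYP2A19, which was added after the values had been seen, was 2032, 2333 and 2052 RPKM in JH1, JH2 and JH3 and 3031, 2193 and 2236 RPKM in LD1, LD2 and LD3, so the breeds then overlapped (exact permutation p = 0.3). Without CYP2E1 instead, the JH mean was 1477 ± 242 RPKM and the LD mean 2357 ± 247 RPKM (SD, n = 3 each), with breeds still apart.

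The make-up of the sum differed as well. CYP2A19 took 35.9% to 36.7% of it in the LD pigs, against 10.4% in JH1, 0.954% in JH2 and 0.396% in JH3. The share of CYP2E1 overlapped, with 15.9% to 44.8% in JH and 32.5% to 45.5% in LD. The share of CYP2C49 was 11.8% to 33.7% in JH and 3.03% to 9.03% in LD, where the sum includes CYP2A19. Of the sum without CYP2A19, a share added after the values had been seen, CYP2C49 took 13.2% to 33.8% in JH and 4.79% to 14.1% in LD, and the breeds overlapped. CYP1A1 was the largest component in JH3, with 41.4% of the sum.

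**Figure D3:**
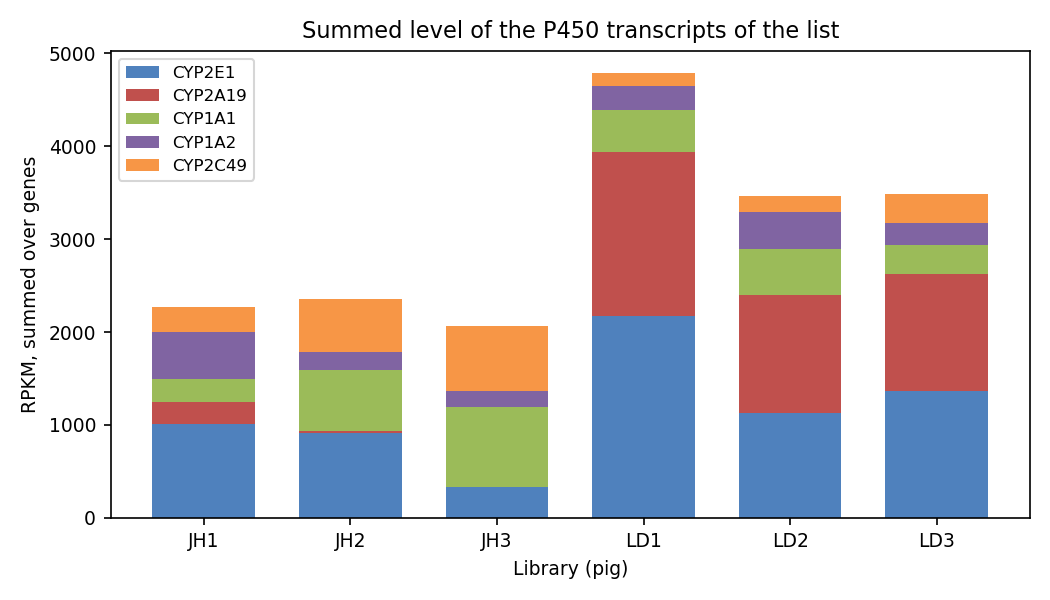
Summed RPKM of the 5 P450 genes in each library, with the part of each gene in its own colour and the axis starting at 0. The JH bars reach 2060 to 2356 RPKM with a thin CYP2A19 band, and the LD bars reach 3463 to 4789 RPKM with CYP2A19 at 35.9% to 36.7% of each bar.

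In LD the order of the means was CYP2E1, CYP2A19, CYP1A1, CYP1A2, CYP2C49 and AHR. CYP2E1 was above CYP2A19 in 2 of the 3 LD pigs, so these neighbours did not differ beyond the spread between pigs. CYP2A19 was above CYP1A1 in 3 of 3 LD pigs, CYP1A1 above CYP1A2 in 3 of 3 and CYP1A2 above CYP2C49 in 2 of 3. In JH the order of the means was CYP2E1, CYP1A1, CYP2C49, CYP1A2, CYP2A19 and AHR. Among these, CYP2E1 was above CYP1A1 in 2 of 3 JH pigs, CYP1A1 above CYP2C49 in 2 of 3, CYP2C49 above CYP1A2 in 2 of 3, CYP1A2 above CYP2A19 in 3 of 3 and CYP2A19 above AHR in 2 of 3. AHR, a low-abundance regulator, was below CYP1A1, CYP1A2, CYP2C49 and CYP2E1 in all 6 pigs, and in JH3 it was above CYP2A19.

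**Figure D4:**
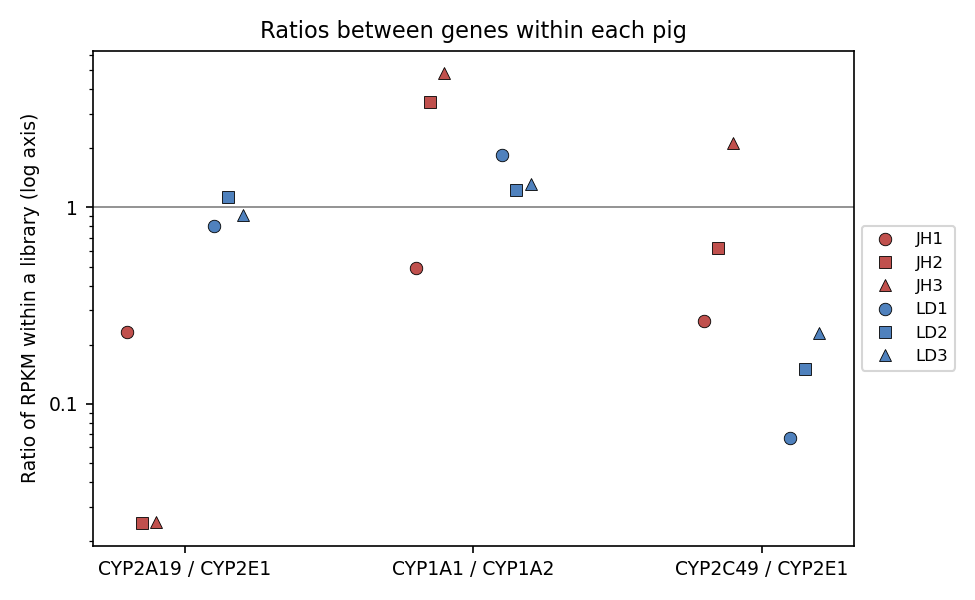
Ratio of the RPKM of pairs of genes within each library, on a log axis with a grey line at 1, for the 3 JH pigs (red) and 3 LD pigs (blue). The CYP2A19 to CYP2E1 ratio is 0.0247 to 0.231 in JH and 0.808 to 1.13 in LD, and the LD ratios of CYP1A1 to CYP1A2 lie between that of JH1 and those of JH2 and JH3.

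SULT1A1, the sulfotransferase for phenols, was listed at 0 in all 6 libraries. Cytochrome P450 reductase (POR) and apolipoprotein B (APOB), which the liver uses throughout, were listed at 0 in all 6 as well, so a listed 0 is not a measure of absence and no comparison of SULT1A1 was possible. Of 11 other genes of sulfation 6 were tested and none was called by limma, with 0 at an unadjusted p below 0.05 and 0 called by voom on recovered reads. Among them SULT2A1, the sulfotransferase of steroids, was between 127 and 322 RPKM in JH and between 126 and 211 RPKM in LD, with a log2 fold change of 0.16 (standard error 0.37). SULT1C4 had a log2 fold change of 0.23, SULT1C2 one of -0.52, and PAPSS2, which makes the activated sulfate, one of -0.37. SLC35B3, which carries the activated sulfate into the Golgi, had the lowest p of the list with a log2 fold change of 0.45 (adjusted p = 0.367, limma).

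Partners and other targets of AHR were also compared. Of 7 genes for partners and chaperones 4 were tested and none was called, with 0 at an unadjusted p below 0.05 and 0 called by voom. The log2 fold changes were -0.41 for ARNT, the DNA-binding partner of AHR, 0.53 for the chaperone HSP90AA1 and 0.39 for the co-chaperone PTGES3. Of 7 further target genes 4 were tested, and again none was called by limma, by voom or at an unadjusted p below 0.05. NQO1, a quinone reductase, had a log2 fold change of -1.08 (standard error 0.60), with 25.6 RPKM in JH1, 5.62 in JH2 and 6.48 in JH3 against 13.04 in LD1, 41.1 in LD2 and 16.6 in LD3. JH1 was thus the highest JH pig in NQO1, as in CYP1A2 and unlike in CYP1A1. TIPARP, a repressor of AHR, had a log2 fold change of -0.57, and UGT1A6, a glucuronosyltransferase of phenols, one of 0.42.

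Among 16 other oxidases and P450 relatives of the liver 7 were tested, of which 1 was called lower in JH and none higher. The call was CYP2B22, a P450 of the drug-inducible CYP2B subfamily, with a JH mean of 4.39 ± 1.52 RPKM, an LD mean of 15.6 ± 2.11 RPKM (SD, n = 3 each) and a log2 fold change of -1.85 (adjusted p = 0.0158, limma). It was not called without LD1 (adjusted p = 0.0811) or LD3 (adjusted p = 0.0521). CYP2C33 had a JH mean of 1210 ± 82.1 RPKM and an LD mean of 608 ± 54.7 RPKM (SD, n = 3 each), with breeds that did not overlap (log2 fold change 0.99, adjusted p = 0.0602, limma). CYP2C42 was at 0.408, 5.56 and 8.18 RPKM in JH1, JH2 and JH3 against 10.6 to 30.8 RPKM in LD (log2 fold change -2.88, adjusted p = 0.149). The flavin monooxygenase FMO1 had a log2 fold change of -0.04. The aldehyde oxidase AOX1 was at 0.137 RPKM or less in every library and was not tested, and 4 genes of the CYP3A subfamily were listed at 0 throughout.

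Genes for proteins that hand electrons to P450 enzymes or bind to them were also read. Of 5 listed genes 3 were tested and none was called, with 0 at an unadjusted p below 0.05 and 0 of 2 called by voom. The reductase POR was listed at 0 and CYB5R3 had no row, so neither could be compared. The log2 fold changes were 0.54 for cytochrome b5 (CYB5A), 0.23 for PGRMC1 and -0.01 for CYB5B. Of 11 transcription factors that drive hepatic P450 genes 9 were tested, and none was called by limma or voom, with 1 at an unadjusted p below 0.05. That 1 was NR2F2, a nuclear receptor of the COUP family, with a JH mean of 6.44 ± 0.61 RPKM and an LD mean of 11.6 ± 2.28 RPKM (SD, n = 3 each, log2 fold change -0.82, adjusted p = 0.131, limma). ONECUT1, a hepatocyte factor, had a log2 fold change of -0.89, and the xenobiotic receptor PXR (NR1I2) one of 0.51. HNF4A, a nuclear receptor that maintains hepatocyte identity, had a log2 fold change of 0.22. The receptor genes NR1I3 (CAR) and RXRA had no row, so neither could be compared.

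Androstenone is cleared by reduction, oxidation and conjugation in the same cells. Of 6 genes of this route, SULT2A1 from the sulfation list among them, 5 were tested, of which 1 was called lower in JH and none higher. HSD3B1, a 3-beta-hydroxysteroid dehydrogenase, was at 36.0, 45.3 and 30.4 RPKM in JH1, JH2 and JH3 and at 116, 144 and 124 RPKM in LD1, LD2 and LD3. The breeds lay far apart, at a log2 fold change of -1.79 with a standard error of 0.24 (adjusted p = 0.00870, limma), and HSD3B1 stayed called whichever of the 6 libraries was left out. HSD17B2, which oxidises testosterone and oestradiol, was at 38.8, 2.87 and 5.57 RPKM in JH1, JH2 and JH3 against 45.4 to 69.3 RPKM in LD. As in CYP2A19, JH1 was the highest of the JH pigs. HSD17B2 had a log2 fold change of -2.62 (adjusted p = 0.126, limma) and was called by voom on recovered reads.

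CYP2E1 and CYP1A2 are known as products of the hepatocytes around the central vein, and markers of the zones of the liver lobule were read beside them. Of 12 pericentral genes 9 were tested, and 1 was called lower in JH and none higher. Glutamine synthetase (GLUL), the marker of the innermost layer, was at 53.8, 42.1 and 72.7 RPKM in JH1, JH2 and JH3 and at 113, 194 and 135 RPKM in LD1, LD2 and LD3 (log2 fold change -1.39, standard error 0.30, adjusted p = 0.0490 from limma). With 1 library left out GLUL was called only without JH3 (adjusted p = 0.0318), and its adjusted p was between 0.107 and 0.167 when any of the other 5 was left out. The GLUL call was also lost with a pseudocount of 0.01 (adjusted p = 0.0604), no filter on low values (adjusted p = 0.0683), median scaling (adjusted p = 0.0552) or a block for the replicate number (adjusted p = 0.0703). The pericentral genes lay in both directions, where an unadjusted p below 0.05 was reached by 3 that were higher in JH and 2 that were lower, and voom called GLUL, GULO and RNF43. GULO, the last enzyme of vitamin C synthesis, had a log2 fold change of -1.73 (adjusted p = 0.0586), whereas RNF43, a ligase that removes Wnt receptors, had one of 1.39 (adjusted p = 0.0516). Of 11 periportal genes 8 were tested and none was called by limma or voom, with 4 at an unadjusted p below 0.05, all higher in JH. Among them were the arginase ARG1 (log2 fold change 1.14, adjusted p = 0.182, limma) and the serine dehydratase SDS (log2 fold change 1.18, adjusted p = 0.194, limma).

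**Figure D5:**
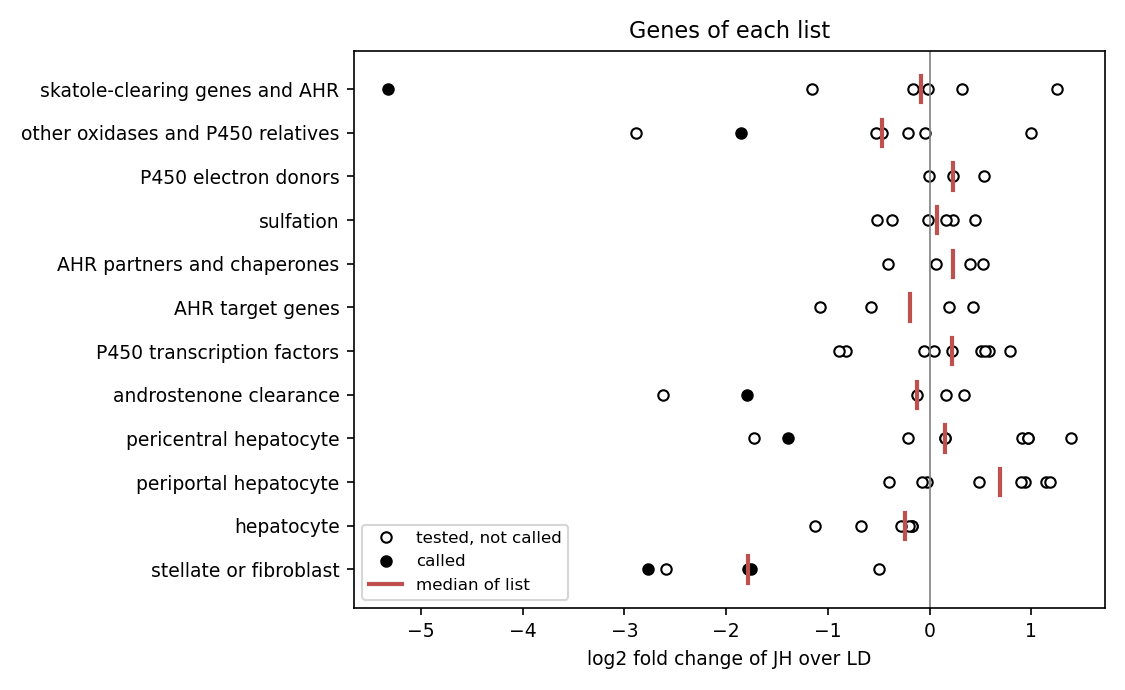
Log2 fold change, JH over LD, of each tested gene in 12 lists, with called genes filled, the other genes open and the median of each list in red. CYP2A19 is the point farthest to the left at -5.32, and most points of the sulfation, electron donor and AHR lists lie within 1 of 0.

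Some markers of other cell types differed between the breeds beside these genes. Of 5 genes of stellate cells and fibroblasts 4 were lower in JH at an unadjusted p below 0.05 and 3 were called, the collagen genes COL1A1, COL1A2 and COL3A1 with log2 fold changes of -2.77, -1.78 and -1.75 (adjusted p = 0.0144, 0.0442 and 0.0159, limma). COL1A2 was lost without JH1, JH3, LD1 or LD2 (adjusted p between 0.0688 and 0.147), with a pseudocount of 0.01 (adjusted p = 0.0553) or with no filter (adjusted p = 0.0652), and COL3A1 without LD1 (adjusted p = 0.0811) or LD2 (adjusted p = 0.0674). The summed level of the 5 was 50.4 to 84.4 RPKM in JH and 164 to 329 RPKM in LD. Of the bile duct markers 3 of 5 were tested, all 3 at an unadjusted p below 0.05 and lower in JH, with log2 fold changes of -1.55 for EPCAM, -2.07 for SOX9 and -1.11 for SPP1. EPCAM was called (adjusted p = 0.0301, limma), though only without JH3 among the 6 fits that left out 1 library, with an adjusted p of 0.0566 to 0.111 in the other 5, and not with no filter on low values (adjusted p = 0.0592). None of 4 tested endothelial, 4 macrophage and 4 lymphocyte markers was called by limma or voom, with 1, 1 and 0 at an unadjusted p below 0.05. The 6 tested hepatocyte markers all had a log2 fold change below 0, with a median of -0.24 and none called by limma, and 2 of them, TF and ALB, were at an unadjusted p below 0.05. Their summed level was 46450 to 51136 RPKM in JH and 64975 to 82095 RPKM in LD, with APOB listed at 0. Most of this sum was ALB in every library. TTR, APOH, FGB and SERPINC1 had smaller log2 fold changes of -0.17, -0.17, -0.20 and -0.28, and the breeds overlapped in all of these but SERPINC1. The part of the cell type markers in the differences above was not tested.

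The genes next to CYP2A19 were read in the gene order of the RefSeq annotation of assembly Sscrofa11.1. The files use an earlier build, so the order serves only to name neighbours, and these genes were looked at after the values had been seen. Within 5 protein-coding genes on either side 6 were tested, 2 of which were called, both lower in JH. CYP2B22, described above, lay 3 genes from CYP2A19. LOC102165015, 2 genes from CYP2A19, was at 1.90, 0.703 and 1.88 RPKM in JH1, JH2 and JH3 against 5.76 to 8.73 RPKM in LD, and was called (log2 fold change -2.20, adjusted p = 0.0291, limma). It was not called without LD1 (adjusted p = 0.0998), LD2 (adjusted p = 0.0788) or LD3 (adjusted p = 0.0846), nor with no filter on low values (adjusted p = 0.0533). The other tested neighbours, SNRPA, RAB4B, EGLN2 and AXL, had log2 fold changes of -0.05, 0.68, 0.30 and -0.10, with breeds that overlapped. Genes of 1 P450 family can share reads, so the values of CYP2A19 and CYP2B22 may not be independent. The symbol LOC102165015 does not say what this gene codes for, so whether the same holds for it is not known.

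Around CYP1A1 and CYP1A2, which are next to each other, none of the tested neighbours was called, none was at an unadjusted p below 0.05, and their log2 fold changes other than those of the pair itself lay between -0.04 and 0.34. Beside CYP2C49 lay the CYP2C genes CYP2C32 and CYP2C42, with log2 fold changes of 1.00 and -2.88. CYP2C32 was at 27.0, 134 and 166 RPKM in JH1, JH2 and JH3, so JH1 was the lowest JH pig as in CYP2C49. Beside AHR 4 genes were tested and none was called. BZW2 and TSPAN13 had log2 fold changes of 0.86 and 0.66 with all JH pigs above all LD pigs (adjusted p = 0.0915 and 0.254, limma), and SNX13 and TWIST1 had -0.24 and -0.57 with breeds that overlapped.

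The genes most like CYP2A19 across the 6 libraries were RPRD1B, SYK, GPRASP2, MAP3K13 and OATV1, with Pearson's r of 0.98 to 0.99 on the log2 scale. Pearson's r compares the pattern and not the size of a change. RPRD1B, with the highest r, ran only from 5.83 to 8.19 RPKM. Its log2 fold change was -0.28, against -5.32 for CYP2A19. With only 6 points that share the split into breeds, 259 genes reached an r above 0.9. Of the 5, OATV1 was called lower in JH, with 10.6 to 19.1 RPKM in JH and 34.0 to 41.9 RPKM in LD (log2 fold change -1.51, adjusted p = 0.0345, limma). Among the fits with 1 library left out, OATV1 was called without JH1 and in none of the other 5. SYK, a kinase of immune receptors, was at 1.04 to 1.97 RPKM in JH and 2.86 to 3.63 RPKM in LD. These 5 genes were picked because they follow CYP2A19. Their lower level in JH, and JH1 as their highest JH pig, therefore come from the choice and are no further finding. The genes most like CYP2E1 were FABP5, CYB561, MGP, ANGPTL7 and FUT2A, also with r of 0.98 to 0.99 over 6 libraries, and none of the 5 was called. MGP, a matrix protein that inhibits calcification, was at 72.5 to 164 RPKM in JH and 185 to 319 RPKM in LD.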

How the data were processed

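Liver mRNA of 3 JH and 3 LD pigs was analysed, each library assigned by its public label. Single reads had been filtered, mapped with Tophat (TopHat2 2.0.13 per the labels) against build Sus scrofa 10.2 and counted by gfold, and the authors deposited the result as RPKM. The deposited small RNA values were not used here. Annotation release and strand handling are not given in the sources used here.

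Members and lists were chosen with earlier results of these data known. Genes that reached an RPKM of 0.5 in 3 or more libraries entered limma 3.58.1 (R 4.3.3, lmFit, then eBayes with trend) as log2(RPKM + 0.1), with Benjamini-Hochberg adjustment over all genes tested. Single values were compared with two-sided exact permutation tests, which for 3 pigs against 3 cannot fall below p = 0.1. Genes named are the 7 members, the called genes and the 3 lowest p of each list, and the 5 genes most like CYP2A19 and CYP2E1. Others were named after their values were seen. Some genes of the lists are not reported here by name.

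Read totals and gene lengths were searched so that all 6 RPKM of a gene became whole reads, which resolved 17816 of 19614 genes (90.8%), 5 of the 7 members among them. CYP2E1 was not resolved. Read numbers stand for counting error alone, since no molecular identifiers are described. The methods were tested on simulated data. Alternatives were pseudocounts of 1 and 0.01, no filter on low values, quantile normalization, median scaling, a block for the replicate number, voom on recovered reads, no fold change limit and each library left out. Python 3.11.15 with pandas 2.3.3, numpy 2.4.6, scipy 1.17.1 and matplotlib 3.10.9 was used.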

Additional observations from a re-analysis of the deposited data

How the results depend on the processing

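The number of genes called fell from 310 to 199 with a pseudocount of 0.01 and to 200 with no filter on low values, and ran from 79 (without LD1) to 406 (without JH3) when 1 library was left out. On recovered reads voom called 407. CYP2A19 kept its log2 fold change of -5.32 with no filter but lost its call (adjusted p = 0.0548, with 19614 genes tested), and ran from -6.69 to -4.27 over the libraries left out. AHR turned to 0.0073 with a pseudocount of 1. Over the libraries left out AHR ran from -0.32 to 0.51, CYP1A1 from -0.040 to 0.86 and CYP1A2 from -0.64 to 0.11, and the log2 difference of the CYP1A1 to CYP1A2 ratio from -0.15 to 1.495. CYP2E1 and CYP2C49 kept their direction in every alternative run and were called in none. CYP2E1 had no voom value.

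A block for the replicate number left 253 genes called, with CYP2A19 among them (adjusted p = 0.0305, limma) and CYP2C49 not (adjusted p = 0.0560). Same-numbered JH and LD libraries deviated from their breed means with a correlation of -0.02, 0.05 and 0.18 across genes, so the numbers were not taken to pair pigs.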
